A study of Mus musculus with 54 samples.

Results

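The potassium channel family was taken as all rows of the count table whose gene symbol starts with Kcn and a further letter, which gave 98 members of 35976 gene rows. They hold 17 pore subunits of voltage-gated Kv channels, 10 silent Kv subunits, 17 auxiliary subunits, 5 KCNQ subunits, 8 subunits of the EAG, ERG and ELK channels, 8 subunits of calcium- and sodium-activated channels, 15 inward rectifiers, 14 subunits of 2-pore leak channels and 4 antisense or overlapping transcripts, of which Kcnq1ot1 is the main one. RNA was read in the trigeminal ganglion (TG), which holds the cell bodies of the sensory neurons of the face and cornea, and in the whole cornea of male mice of 8 to 12 weeks. SNS-CKO mice (n = 3) carry Nav1.8-Cre +/- and miR-183C f/f, so that miR-183C, the cluster of miR-183, miR-96 and miR-182, is lost in cells that have used the Nav1.8 promoter, which is mainly active in nociceptive neurons, and their WT littermates (SNS-WT, n = 4) carry the same Cre with miR-183C +/+. All mice of this strain also carry R26 LSL-RFP +/+ and Csf1r-EGFP +/+, reporters for the Cre-positive cells and for myeloid cells. MS-CKO mice (n = 5) carry LysM-Cre +/- and miR-183C f/f, which removes the cluster from myeloid cells, and their WT littermates (MS-WT, n = 5) carry miR-183C f/f without Cre, both with Csf1r-EGFP +/+. LysM-Cre replaces 1 copy of the lysozyme gene Lyz2, so MS-CKO and MS-WT mice differ in that copy too. A further strain, KO mice with a gene trap in both copies of miR-183C in all cells and their WT littermates, is used here only for sorted myeloid cells, which carry Csf1r-EGFP and, from cornea, were pooled from several mice. Titles of the WT libraries of TG and cornea name 1 mouse each, while titles of the CKO libraries give the strain and a number. Each library was taken here as 1 mouse, and the p-values below measure the spread between libraries. The tests asked in which tissue each member was read, and whether its level differed between CKO and WT mice of a strain.

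Potassium channels let K+ leave the cell and so set the resting potential and end the action potential. Kv channels are built of pore-forming subunits, joined by silent subunits that make no current of their own and by auxiliary subunits that change gating or trafficking. KCNQ channels carry the M-current, which holds back repetitive firing, and 2-pore channels carry the leak current at rest. Inward rectifiers clear extracellular K+ in glia, among them the satellite glia around sensory neurons, and in epithelia potassium channels set the driving force for salt and water transport.

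The 17 libraries of TG held 2934793 to 5387042 counts each and the 17 of cornea 2366126 to 6741290. Summed markers of TG neurons lay at 18925 to 22571 counts per 1000000 counts of the library (CPM) in TG libraries and at 1.0 to 28.2 CPM in cornea libraries, and summed markers of corneal epithelium lay at 264 to 345 CPM in TG and at 69490 to 82300 CPM in cornea. Columns with the tag B2 in their names are called the later batch here, and the rest the earlier one. The full ending is TGB2 or CorneaB2 in SNS columns and mRNAB2 in the MS columns of both tissues. The labels do not say what the tag means and give no order in time. In the cornea the neuron markers were higher in the later batch, with 13.4 to 28.2 CPM against 1.0 to 15.3 CPM in the earlier one. By this tag all SNS libraries belong to the later batch, as do 2 MS-CKO libraries and 1 MS-WT library of each tissue. Cornea MS-WT libraries 1 and 2 stood apart, with lens markers at 932 and 309 CPM against at most 43.1 CPM in the other corneas. The strain of each library was read from its column name, where NACC was taken to mean SNS, and 11 columns named for another strain repeat columns used here as MS. Of these 11 names 2 also go against the genotype used here, since a TG column named for the WT of the KO strain equals TG MS-CKO 3, and a TG column named for KO equals cornea MS-WT 4 and so goes against its tissue as well. Results of the MS strain rest on those names. The rows Mir183, Mir96 and Mir182 were at 0 in every library, TG and cornea of CKO and WT mice alike, and since tags of polyadenylated 3′ ends do not measure mature microRNAs, they are no check of the deletion. The reads are tags of the 3′ end, meant to be about 1 for each transcript, so CPM values were not divided by gene length. Levels of different members are set side by side on the CPM scale. The number of tags for each transcript was not tested, for Kcnq1ot1 as for the other members.

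The deleted cluster encodes 3 microRNAs, which lie on the minus strand of chromosome 6 and pair with target transcripts through their seeds. They are shown because the conditional knockouts remove them and because the matches in the members are counted by their seeds. Capitals mark the seed, bases 2 to 8. The sequences are those of RefSeq, with positions of GRCm38.p6.
miR-183-5p, chr6:30169711-30169732: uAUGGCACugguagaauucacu
miR-96-5p, chr6:30169506-30169528: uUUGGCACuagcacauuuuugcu
miR-182-5p, chr6:30165962-30165986: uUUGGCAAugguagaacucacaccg

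Only the last base of the seed tells miR-182-5p and miR-96-5p apart. A 3′ UTR match to at least 1 of the 3 seeds (7mer-m8, or 8mer where an A follows) was found in 35 of 94 members with an annotated 3′ UTR (37.2%), against 5067 of 21020 genes (24.1%). The longest 3′ UTR of a member had a median of 1747 bases, against 961 bases over all genes. The part of UTR length in these shares was not tested. By microRNA, miR-182-5p matched 24 members (25.5%, against 11.4% of all genes), miR-183-5p matched 13 members (13.8%, against 9.37%) and miR-96-5p matched 6 members (6.38%, against 8.38%). A match is a run of letters and no proof of binding. The matches below are a selection from members described further on, with the bases that pair with the seed in capitals, on the strand of the gene in mm10.
Kcna2, miR-182-5p, chr3:107106138-107106156, plus strand: aattgcagTTGCCAActag
Kcna2, miR-182-5p, chr3:107106270-107106288, plus strand: aatatgaaTTGCCAAgttt
Kcnq3, miR-182-5p, chr15:65988442-65988460, minus strand: catactctTTGCCAAaagc
Kcnk1, miR-183-5p, chr8:126029942-126029960, plus strand: atcacctgGTGCCATacac
Kcnk10, miR-183-5p, chr12:98429833-98429851, minus strand: gtcaacttGTGCCATagat
Kcnj14, miR-183-5p, chr7:45816903-45816921, minus strand: tgtttgaaGTGCCATtctt

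Those of Kcnq3, Kcnk1 and Kcnk10 are 8mers. Kcnq3 holds 4 matches to miR-182-5p in its 3′ UTR, and Kcnk10 holds 3 to miR-183-5p and 1 to miR-182-5p. Other members described further on hold matches that are not shown, among them Kcng2, with 1 to miR-182-5p, and Kcnb2, Kcnk2, Kcnh1 and Kcnj10.

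The family was read mainly in the TG. Its summed level was 5681 to 6546 CPM in TG libraries and 209 to 470 CPM in cornea libraries, where Kcnq1ot1 alone gave a large part and 125 to 170 CPM remained without it. Of the 98 members, 93 had a count in at least 1 TG library and 87 in at least 1 cornea library, and Kcnk15, Kcnk16 and Kcnmb4os1 were at 0 in all of them. The mean was at least 1 CPM for 75 members in TG and for 26 in cornea, and at least 10 CPM for 48 in TG and 6 in cornea. In these bulk samples fewer cells of a type and less RNA per cell cannot be told apart.

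Kv pore subunits held 56.2% of the family's CPM in TG and 6.87% in cornea. Kcna1, a pore subunit of low-threshold Kv channels that lie beside the nodes of myelinated axons, was the most abundant member of TG at 1649 ± 76.7 CPM (SD, n = 17). Its libraries gave 1496, 1558 and 1670 CPM in SNS-CKO, 1746, 1721, 1600 and 1707 CPM in SNS-WT, 1658, 1643, 1709, 1649 and 1780 CPM in MS-CKO and 1716, 1557, 1611, 1569 and 1642 CPM in MS-WT. Its corneal level was at most 2.25 CPM in any library. Kcna2, which forms mixed channels with Kcna1, followed in the same role at 649 ± 46.5 CPM in TG. Kcnb2, a delayed rectifier subunit, was read there at 259 ± 25.9 CPM, and Kcna6, a further Kv1 pore subunit, at 148 ± 18.6 CPM. Kcna2, Kcnb2 and Kcna6 were far lower in cornea, with means of 0.504 to 0.788 CPM. Kcna3, Kcna5, Kcna7 and Kcna10 had means under 1 CPM in both tissues.

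**Figure D1:**
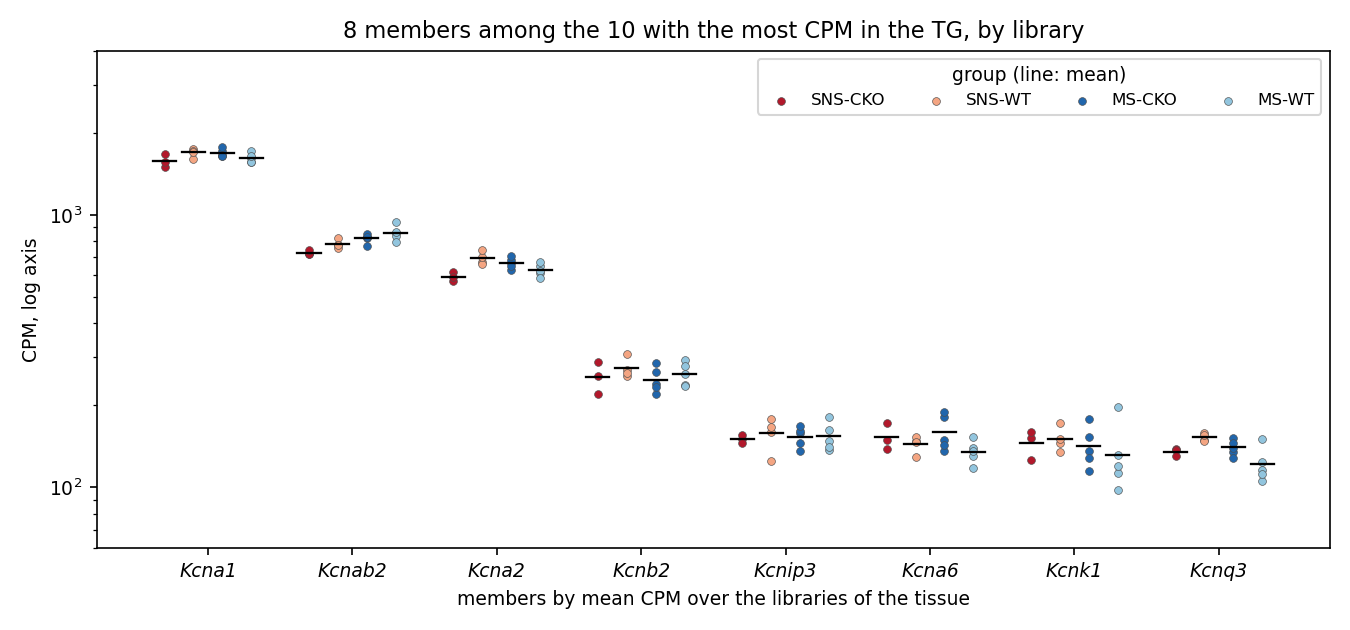
CPM on a log axis of 8 members among the 10 with the highest mean over the 17 TG libraries, with 1 point for each library, coloured by group, and a line at the group mean. Kcna1, Kcnab2 and Kcna2 stand apart from the rest, and the 4 groups lie close together for each member.

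Auxiliary subunits held 19.8% of the family's CPM in TG and 3.39% in cornea. Kcnab2, the beta subunit that binds Kv1 channels in axons, had 805 ± 58.6 CPM in TG, and Kcnip3, a calcium-binding partner of Kv4 channels, had 154 ± 15.1 CPM. Kcnab2 overlaps Nphp4 on the other strand, and the strand setting of the counting was not found in the labels or the study's methods, so reads of overlapping genes may not be kept apart. Together Kcna1, Kcnab2 and Kcna2 held 50.2% of the family's CPM in TG, and the 10 highest members held 70.9%. Among the KCNQ subunits, 4.98% of the family in TG, Kcnq3, a subunit of the M-channel, led with 137 ± 15.5 CPM. Kcnq5 had 4.51 CPM and Kcnq1, the subunit known from heart and epithelia, 0.731 CPM.

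The other roles were smaller in TG. Kcnh7, an ERG channel of the nervous system, led its group at 88.0 CPM, and Kcnma1, the large-conductance calcium-activated channel, led its own at 64.6 CPM. Kcnj10, the inward rectifier of satellite glia, led its group at 56.7 CPM, and Kcns3 led the silent subunits at 55.9 CPM. Of the 2-pore channels Kcnk1 had 142 ± 25.8 CPM, ahead of Kcnk2 (59.0 CPM), a channel opened by stretch and heat, Kcnk3 (53.7 CPM), closed by acid, Kcnk18 (30.6 CPM), known from trigeminal neurons, and Kcnk10 (26.1 CPM), a relative of Kcnk2.

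The cornea had its own order of members. Kcnq1ot1, a long antisense RNA within the imprinted Kcnq1 locus that codes for no channel and overlaps Kcnq1 on the other strand, held 54.3% of the family's CPM, at 175 ± 70.3 CPM (SD, n = 17). The next were Kcnv1, a silent Kv subunit, at 20.6 CPM, Kcnk5, a 2-pore channel of transporting epithelia, at 17.9 CPM, Kcnh1, an EAG channel, at 15.4 CPM, Kcnk6, a 2-pore channel, at 15.4 CPM, and Kcnc2, a pore subunit of fast Kv channels, at 11.2 CPM. Kcnk1 (9.32 CPM), Kcnk7 (5.56 CPM), Kcng3 (4.36 CPM) and Kcnk3 (4.0 CPM) complete the 10 highest. Only Kcnk1 is among the 10 highest of both tissues. Below Kcnq1ot1, neighbours in this order overlap in their libraries.

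**Figure D2:**
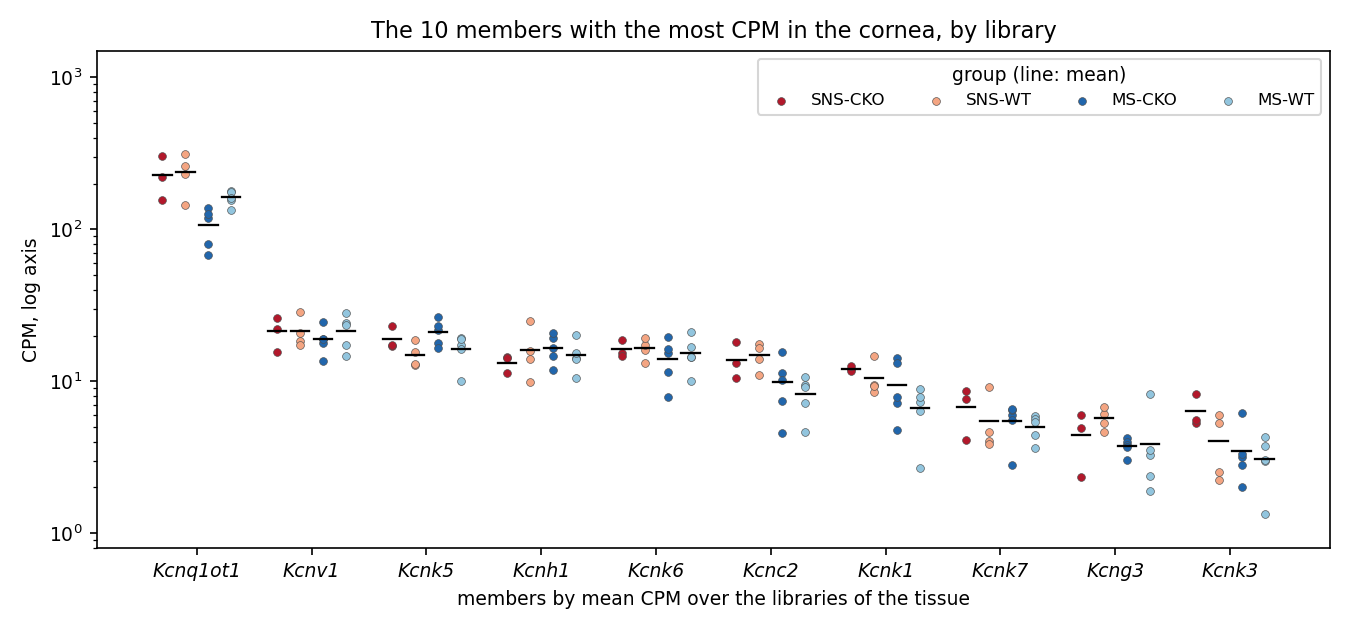
CPM on a log axis of the 10 members with the highest mean over the 17 cornea libraries, drawn as in the plot of TG levels. Kcnq1ot1 lies above all others, at 67.4 to 314 CPM, and the points of the remaining 9 members overlap from one to the next.

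TG was then set against cornea within each strain and genotype, which holds strain and genotype. In SNS mice it also holds the tag B2, though the full ending of the column names differs between the tissues. Over all gene rows with a count the mean CPM was higher in TG for 58.3%, and it was higher in TG for 83 of the 95 members with a count. In SNS-WT mice 60 members passed the filter on low counts, and 57 of them passed an adjusted p of 0.05 (78.5% of the 13196 genes tested did), 53 higher in TG and 4 lower (41.3% and 37.2% of all genes). In MS-WT mice 64 passed the filter, and 59 passed the test (77.4% of all genes), 55 higher and 4 lower (40.4% and 37.0%). In SNS-CKO mice 60 of 64 passed (72.9% of all genes), 56 higher and 4 lower (38.1% and 34.8%), and in MS-CKO mice 61 of 64 (75.5% of all genes), 56 higher and 5 lower (38.5% and 37.0%). A member with counts in TG alone passed the filter through the tissue in which it was high, so these counts are a description of the members tested and not of the family. The median log2 change of the tested members was 6.85 in SNS-WT and 6.99 in MS-WT, against 0.07 and 0.05 over all genes tested, and 6.13 and 6.59 when the 11 and 12 members at 0 in every cornea library of the group were put at their lower bound.

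**Figure D3:**
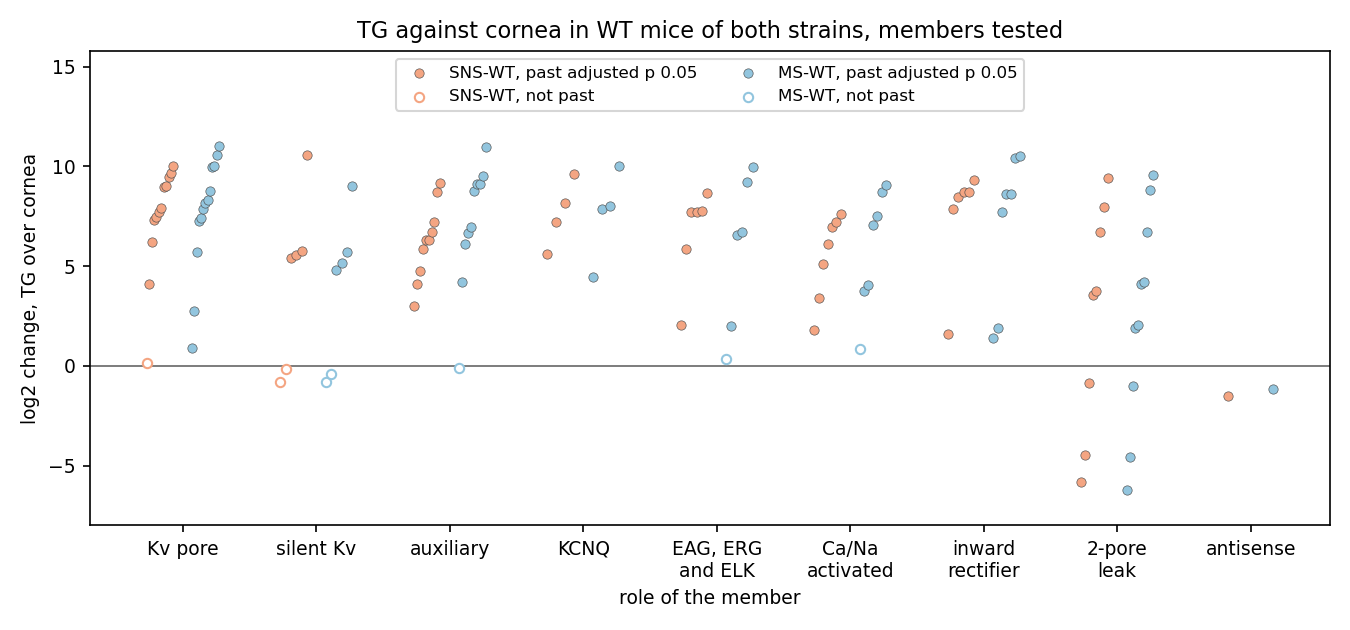
Log2 change of TG over cornea for each member tested, by role, in SNS-WT and MS-WT mice. Filled points passed an adjusted p of 0.05. Most points of every channel role lie above 0, and the filled points below 0 are Kcnk5, Kcnk6, Kcnk7 and Kcnq1ot1 in both strains.

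The 2 WT strains share no library. Of the 57 members past the threshold in SNS-WT and the 59 in MS-WT, 54 were so in both with the same direction (94.7% and 91.5% of each list, against 90.2% and 90.1% for all genes past it), 50 higher in TG and 4 lower. By role, all tested KCNQ subunits (4), EAG, ERG and ELK subunits (6), inward rectifiers (6), calcium- and sodium-activated subunits (7) and auxiliary subunits (10) were higher in the TG of SNS-WT mice, and 11 of 12 Kv pore subunits. Among the 2-pore channels 5 were higher and 3 lower of 8, and of the 6 silent subunits 4 were higher and 2 did not pass.

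Kcna1 had a log2 change of 10.02 (SE 0.16, edgeR adjusted p = 2.2e-24) in SNS-WT mice, with 1693 ± 64.4 CPM in TG and 1.49 ± 0.629 CPM in cornea (n = 4 each), and of 11.02 (SE 0.23) in MS-WT mice. Kcnc4, a fast-inactivating Kv subunit, Kcnq3, Kcna6 and Kcna2 had changes of 9.68, 9.60, 9.04 and 8.96 in SNS-WT mice, with standard errors of 0.16 to 0.32. The corneas of this group held 1 count of Kcnc4, 2 of Kcnq3 and 3 of Kcna6 in all, and leaving out 1 library at a time gave changes of 9.24 to 11.34 for Kcnc4, 9.10 to 10.06 for Kcnq3 and 8.58 to 9.83 for Kcna6. For others no cornea library of the SNS-WT group had a count, so that only a bound can be given. From a floor of 3 counts over the 4 corneas, Kcns3 was at least 261-fold higher in TG, Kcna4, an A-type Kv subunit, at least 121-fold, Kcnk10 at least 117-fold, Kcnj4, an inward rectifier, at least 108-fold and Kcnip1, a partner of Kv4 channels, at least 98.9-fold. Kcnip1 overlaps Kcnmb1 on the other strand.

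Only a few members were lower in TG. Kcnk6 gave 0.584, 0.517, 0.841 and 1.19 CPM in the TG of SNS-WT mice, against 16.0, 13.3, 17.3 and 19.1 CPM in their corneas. The tissues did not overlap, with a 21.9-fold lower level in TG (log2 change -4.45, SE 0.37, adjusted p = 9.4e-11), and in MS-WT mice the log2 change was -4.58 (SE 0.52). Kcnk7, a relative of Kcnk1 and Kcnk6 for which no current of its own is known, was at 0 in 3 of 4 SNS-WT TG libraries and at 0.292 CPM in the other, against 4.01, 9.22, 4.65 and 3.88 CPM in cornea (log2 change -5.83, SE 0.76, adjusted p = 2.1e-07), and the change in MS-WT mice was -6.22 (SE 0.68). Kcnk5 was lower by less, with 8.97 ± 2.42 CPM in TG and 14.9 ± 2.75 CPM in cornea of SNS-WT mice (log2 change -0.84, SE 0.25, adjusted p = 0.0040), and a change of -0.99 (SE 0.24) in MS-WT mice. These 3 genes are the only 2-pore channels tested that were lower in TG, in each of the 4 comparisons.

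Kcnq1ot1 had 90.5 ± 18.5 CPM in TG and 238 ± 70.6 CPM in cornea of SNS-WT mice, a log2 change of -1.49 (SE 0.16, adjusted p = 1.0e-08). The change was -1.16 (SE 0.17) in MS-WT, -0.99 (SE 0.20) in SNS-CKO and -0.53 (SE 0.19, adjusted p = 0.018) in MS-CKO mice. In MS-CKO mice this call was lost when libraries were scaled by their totals alone (adjusted p = 0.16) and when any of 4 libraries was left out, TG MS-CKO 2 or 3 or cornea MS-CKO 3 or 4 (adjusted p from 0.052 to 0.076), and within the earlier batch alone the change was -0.80 (adjusted p = 0.0011).

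Some members were read at like levels in both tissues. Kcnv1 had 20.7 ± 5.30 CPM in TG and 21.3 ± 5.16 CPM in cornea of SNS-WT mice, with a log2 change of -0.15 (SE 0.21, adjusted p = 0.53), and in MS-WT mice the change was -0.43 (SE 0.22, adjusted p = 0.081), which passed the threshold when cornea MS-WT library 3 or 4 was left out (-0.55 and -0.51). Kcnc2 had 17.7 ± 2.84 CPM in TG and 14.8 ± 3.01 CPM in cornea of SNS-WT mice (0.12, SE 0.21, adjusted p = 0.61), but was higher in the TG of MS-WT mice (0.90, SE 0.26, adjusted p = 0.0041), and with NACC columns read as MS instead these calls changed places (0.98 in SNS-WT, 0.18 in MS-WT). Kcng3 had 3.55 ± 1.59 CPM in TG and 5.71 ± 0.909 CPM in cornea of SNS-WT mice (-0.79, SE 0.37, adjusted p = 0.053), and it was lower in the TG of MS-CKO mice (-1.83, SE 0.44, adjusted p = 0.00092). Kcnh1 was higher in TG in both WT strains, by only 2.07 (SE 0.18) and 2.01 (SE 0.17) on the log2 scale. Kcnh1 overlaps Hhat on the other strand, and reads of the 2 genes may not be kept apart.

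Kcnj15, an inward rectifier of epithelia, was left out by the filter but lay on one side. It was at 0 in 15 of 17 TG libraries, with 0.488 and 0.335 CPM in SNS-CKO libraries 2 and 3, and at 1.23 to 6.78 CPM in every cornea library. Without the filter on low counts its log2 change was -6.93 (SE 1.09, adjusted p = 7.3e-10) in SNS-WT and -7.33 (SE 1.1, adjusted p = 4.9e-08) in MS-WT mice.

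Kcnj16, a partner of Kcnj10 and Kcnj15, differed most between the strains in this contrast, with a log2 change of 1.89 (SE 0.58) in MS-WT mice and 15.6 ± 5.84 CPM in the TG of SNS-WT mice against 0 in all their corneas. It had 10.2, 1.93, 1.75, 0 and 2.50 CPM in the 5 MS-WT corneas and 5.22 CPM in 1 of the 5 MS-CKO corneas, with 0 in the rest. The highest value was that of cornea MS-WT library 1, which was richest in lens markers (932 CPM), melanocyte markers (101 CPM) and retina markers (104 CPM), and in which Kcnj13, another inward rectifier, was also highest (5.08 CPM). The MS-CKO cornea with 5.22 CPM was library 3, with lens markers at 32.6, melanocyte markers at 36.0 and retina markers at 3.22 CPM. Cornea MS-WT library 2, with lens markers at 309 CPM, had 1.93 CPM of Kcnj16. The part of lens, pigment or retina cells in these values was not tested.

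Scaling by library totals alone moved the median log2 change of all genes to between 0.19 and 0.22, against between 0.00 and 0.07 with TMM factors, and left the total numbers of members past the threshold as they were, with 57 higher and 4 lower in MS-CKO mice in place of 56 and 5, where Kcnq1ot1 no longer passed and Kcnc2 did. Among 25 related genes outside the family, 19 of the 21 tested were higher and 2 lower in TG in both WT strains. Dpp6 and Dpp10, partners of Kv4 channels, had changes of 8.64 (SE 0.20) and 8.43 (SE 0.34) in SNS-WT mice, and Cntnap2 and Cntn2, which cluster Kv1 channels beside the node, of 8.63 (SE 0.22) and 9.68 (SE 0.23). The 2 lower in TG were Lrrc26, a gamma subunit of the large-conductance calcium-activated channel (-6.56, SE 0.48), and Slc12a2, a chloride cotransporter of secreting epithelia (-1.64, SE 0.09).

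In the TG of SNS-CKO against SNS-WT mice 68 members were tested and none passed an adjusted p of 0.05 in edgeR or in DESeq2, where 0.0392% of all genes did in edgeR. At an unadjusted p under 0.05 there were 5 members (7.35% of those tested), against 6.67% of all genes. Log2 changes were positive for 25 members and negative for 43, with a median of -0.09 against 0.00 over all genes. For Kcna1 the change was -0.11 (SE 0.07, 95% interval -0.25 to 0.04), and for Kcnab2 -0.11 (SE 0.08, 95% interval -0.26 to 0.03).

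**Figure D4:**
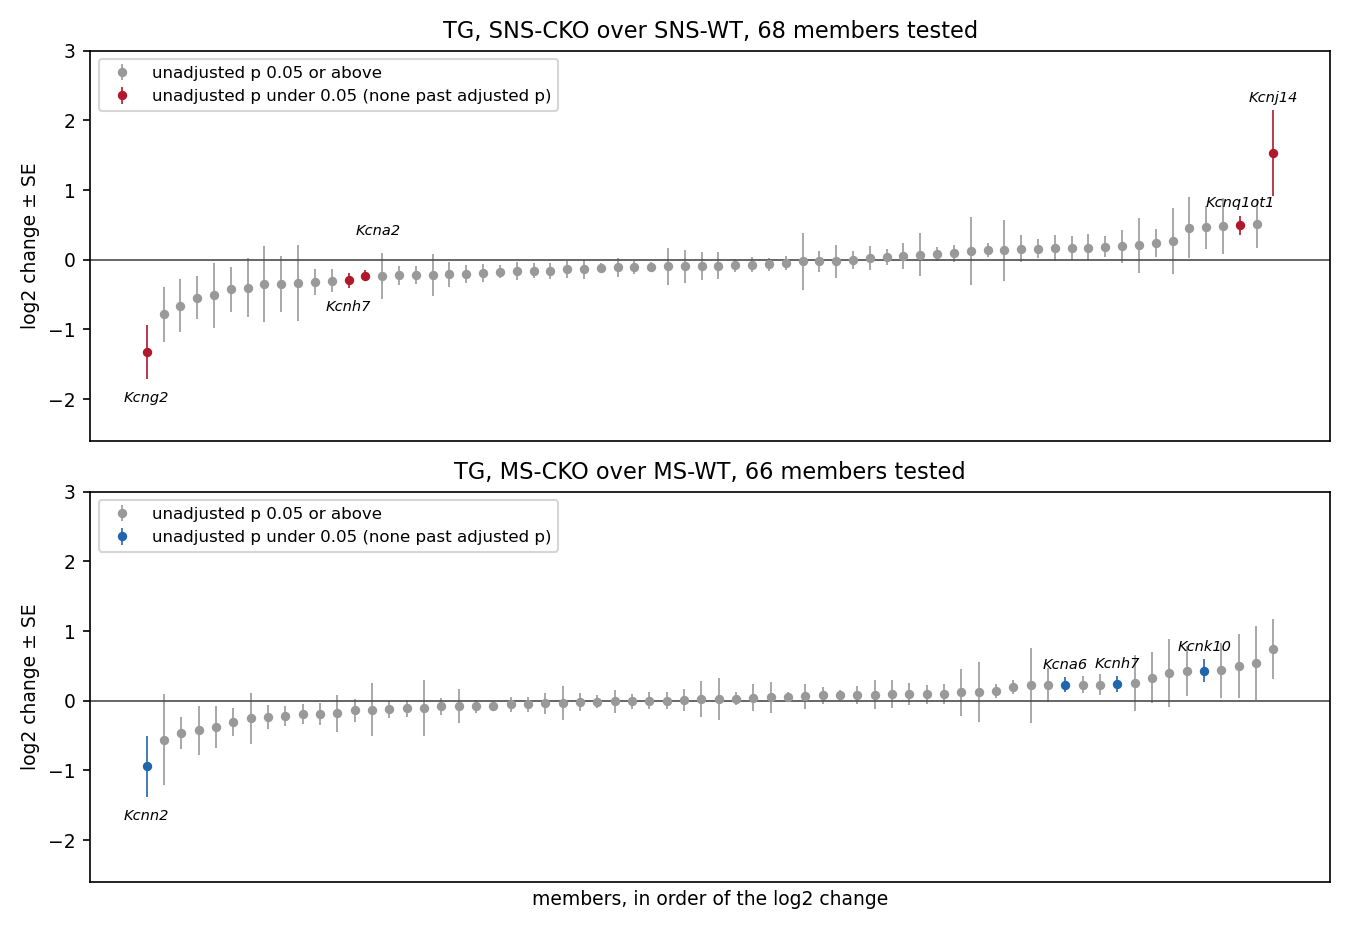
Log2 change ± SE of CKO over WT for each member tested in the TG, ordered by its size, with SNS above and MS below. Coloured and named points had an unadjusted p under 0.05, and no point passed the adjusted threshold.

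The 5 members with the smallest p in this comparison were Kcnq1ot1, Kcng2, Kcna2, Kcnh7 and Kcnj14. Kcnq1ot1 was read at 96.9, 139 and 147 CPM in SNS-CKO, against 99.9, 66.5, 86.6 and 109 CPM in SNS-WT mice. Both higher values of the CKO group lay above every WT library and the third inside their range (log2 change 0.49, SE 0.14, adjusted p = 0.41). With no filter on low counts the adjusted p was 0.0094, and with NACC columns read as MS the change was 0.032 (SE 0.15, adjusted p = 0.998). Over all TG libraries Kcnq1ot1 ran from 66.5 to 147 CPM in the later batch and from 55.5 to 89.8 CPM in the earlier one.

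Kcng2, a silent Kv subunit, had 4.32, 2.93 and 2.68 CPM in SNS-CKO, against 12.0, 7.24, 7.57 and 6.52 CPM in SNS-WT mice. The groups did not overlap, and the log2 change was -1.32 (SE 0.39, adjusted p = 0.43). Kcna2 had 571, 617 and 590 CPM in SNS-CKO, against 674, 662, 701 and 741 CPM in SNS-WT mice. All CKO values lay below all WT values, by a log2 change of -0.23 (SE 0.08, adjusted p = 0.57). Kcnh7 was also separate, with 78.7, 90.8 and 96.1 CPM in SNS-CKO, against 101, 116, 120 and 97.3 CPM in SNS-WT mice (-0.29, SE 0.11, adjusted p = 0.63). Kcnj14, an inward rectifier, had 2.59, 7.56 and 6.70 CPM in SNS-CKO, against 4.09, 0.517, 0 and 3.26 CPM in SNS-WT mice (1.54, SE 0.62, adjusted p = 0.68), and these groups overlapped. With NACC columns read as MS instead, the changes of Kcna2 (0.11), Kcng2 (0.18) and Kcnh7 (0.20) turned to positive, none past the threshold.

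In this comparison 11 of the 68 members tested had groups that did not overlap, against 7.29% of all genes. Of these 10 were lower in SNS-CKO mice (3.41% of all genes were), namely Kcna2, Kcnab2, Kcnab3, Kcng2, Kcnh7, Kcnj3, Kcnmb2, Kcnq3, Kcns1 and Kcns3, and 1 was higher, Kcnu1 (3.88% of all genes were). The summed family was 5681, 6080 and 6075 CPM in SNS-CKO, against 6288, 6219, 6410 and 6366 CPM in SNS-WT mice. All SNS-CKO sums lay below all SNS-WT sums. Summed neuron markers had a mean of 19653 CPM in SNS-CKO (18993 to 20019 CPM) and of 20229 CPM in SNS-WT mice (18925 to 21091 CPM). Summed erythrocyte markers had a median of 977 CPM in SNS-CKO (859 to 1404 CPM) and of 2102 CPM in SNS-WT mice (1144 to 3370 CPM). The part of either marker set in the values of the family was not tested. With another scaling (RLE factors) Kcns1 overlapped and 10 members remained. Leaving out a library can only keep or raise the number of members that do not overlap. Without SNS-CKO library 1, 2 or 3 the count was 18, 17 and 18 (14.6%, 16.0% and 15.6% of all genes). Without SNS-WT library 1, 2, 3 or 4 it was 13, 14, 18 and 15 (11.3%, 12.2%, 12.5% and 12.0% of all genes).

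In the TG of MS-CKO against MS-WT mice 66 members were tested and none passed in edgeR or DESeq2, as did none of all genes in edgeR (0%). At an unadjusted p under 0.05 there were 4 members (6.06% of those tested), against 2.98% of all genes. The median was 0.03, against 0.00 over all genes, and no member had groups that did not overlap (0.513% of all genes). Kcnk10 had the smallest p, with 32.5, 28.9, 34.2, 23.8 and 25.9 CPM in MS-CKO, against 21.6, 22.8, 18.2, 19.9 and 25.4 CPM in MS-WT mice (log2 change 0.43, SE 0.17, adjusted p = 0.999). Within the earlier batch its change was 0.64 (SE 0.20, adjusted p = 0.998), and with NACC columns read as MS instead it was 0.091 (SE 0.16), the lowest of its alternatives. Kcna6 (0.23), Kcnn2, a small-conductance calcium-activated channel (-0.94), Kcnh7 (0.24) and Kcnmb2, a beta subunit of the large-conductance channel (-0.46), followed, all with an adjusted p of 0.999. The summed family was 6223, 6033, 6261, 6304 and 6546 CPM in MS-CKO, against 6313, 5971, 6024, 6066 and 6228 CPM in MS-WT mice, and these overlapped.

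The difference between the strains was tested as an interaction over 75 members, of which none passed in edgeR or DESeq2 (0.00728% of all genes did in edgeR) and 5 had an unadjusted p under 0.05 (4.17% of all genes). Kcnh7 had the smallest p, with a difference of SNS-CKO minus MS-CKO effect of -0.54 (SE 0.17, adjusted p = 0.998). Kcna2 (-0.31), Kcng2 (-1.44), Kcnq3 (-0.37) and Kcnk2 (-0.42) followed.

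**Figure D5:**
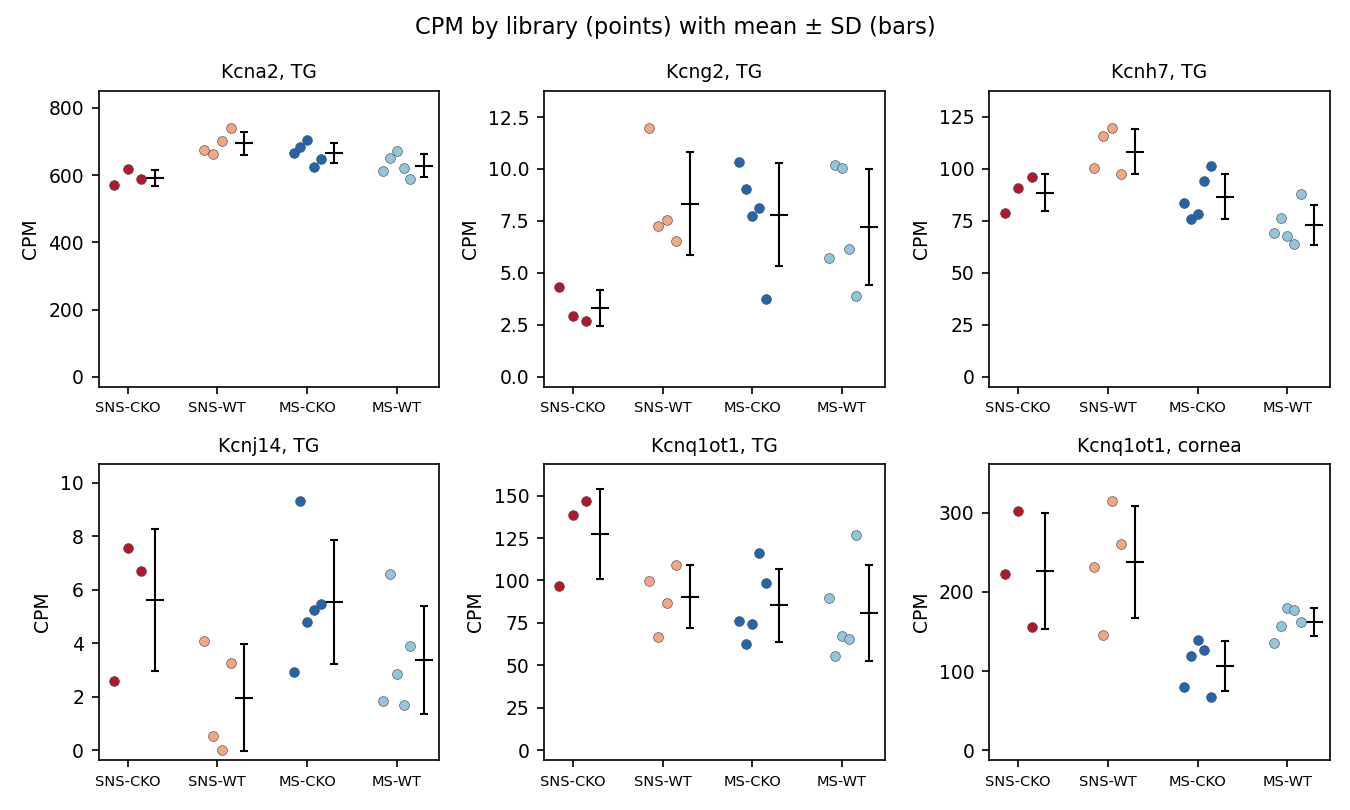
CPM by library (points) and mean ± SD (bars) in the 4 groups for Kcna2, Kcng2, Kcnh7, Kcnj14 and Kcnq1ot1 in the TG and for Kcnq1ot1 in the cornea. The SNS-CKO points of Kcna2, Kcng2 and Kcnh7 lie below those of SNS-WT, and the MS-CKO and MS-WT points overlap in every panel.

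The cornea allowed fewer tests. In SNS-CKO against SNS-WT mice 12 members were tested and none passed in edgeR (0% of all genes) or in DESeq2, and none had an unadjusted p under 0.05 (6.24% of all genes) or groups that did not overlap (6.31% of all genes). Kcnk5 had the smallest p, at 17.0, 17.3 and 23.0 CPM in SNS-CKO, against 12.7, 15.5, 18.6 and 12.9 CPM in SNS-WT mice (log2 change 0.38, SE 0.23, adjusted p = 0.80). Kcnk3 (0.64), Kcng3 (-0.35), Kcnh1 (-0.23) and Kcnk1 (0.21) followed, each with a 95% interval that held 0.

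In MS-CKO against MS-WT corneas 17 members were tested, with none past the threshold in edgeR (0% of all genes) or DESeq2, 1 with an unadjusted p under 0.05 (3.56% of all genes) and none with groups that did not overlap (0.634% of all genes). That member was Kcnq1ot1, with 79.8, 119, 139, 127 and 67.4 CPM in MS-CKO, against 135, 157, 180, 177 and 162 CPM in MS-WT mice. The groups overlapped only in that the highest MS-CKO library lay above the lowest of MS-WT (log2 change -0.60, SE 0.16, adjusted p = 0.999). The change was -0.51 (SE 0.15) within the earlier batch and -0.69 (SE 0.19) without the 2 lens-rich libraries, it was smallest, at -0.34 (SE 0.27), with NACC columns read as MS, and with no filter on low counts its adjusted p was 0.0042. Kcnk5 (0.35), Kcnk1 (0.52) and Kcnd3 (-0.66) had changes with a 95% interval that held 0. In the interaction of the corneas none of 22 members passed in edgeR (0% of all genes) or DESeq2, and none had an unadjusted p under 0.05 (2.48% of all genes). The smallest p was that of Kcnq1ot1 (0.55, SE 0.30).

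Members with and without a seed match were set side by side in each comparison. In the TG of SNS-CKO against SNS-WT mice the log2 change was positive for 6 of 23 tested members with a match (median -0.11) and for 18 of 43 without one (median -0.08). In MS-CKO against MS-WT mice it was positive for 16 of 23 with a match (median 0.09) and for 20 of 42 without (median -0.01). In the corneas 2 of 7 with a match were positive in SNS-CKO and 3 of 7 in MS-CKO mice, against 3 of 4 and 6 of 9 without one. Of the 25 related genes 21 were tested in the TG of SNS and 20 in the TG of MS mice. In the corneas only 7 were tested in SNS and 8 in MS mice. The interactions tested 21 in TG and 11 in cornea. None of the related genes tested passed the threshold in these 4 comparisons or the 2 interactions in edgeR.

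The sorted myeloid cells, which carry the Csf1r-EGFP reporter, gave 1 library for each group, pooled over mice for cornea, and their values are given with no test. In corneal resident myeloid cells 83 of the 98 members (84.7%) were at 0 in all 4 libraries, as were 76.1% of all 35976 rows, and 10 members had counts in only 1 (12.5% of all rows did). These libraries held counts in only 1650 to 6455 rows each. Of the members only Kcns2, a silent Kv subunit, was read in all 4 libraries (1.64% of all rows were). It had 98.7 CPM in KO, 88.0 CPM in the WT of the KO strain, 18.1 CPM in MS-CKO and 150 CPM in MS-WT cells. In spleen myeloid cells, with counts in 7323 to 10559 rows, 76 members (77.6%) were at 0, as were 65.0% of all rows, and 5 had counts in all 4 libraries (15.4% of all rows did). Kcnab2 ran there from 46.8 to 142 CPM, Kcnn4, the intermediate-conductance calcium-activated channel of blood cells, from 11.5 to 109 CPM, and Kcnq1ot1 from 0.973 to 115 CPM.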

How the data were processed

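The authors made 3′ tag libraries (QuantSeq FWD) of TG, cornea and sorted myeloid cells, read them on a NovaSeq, and used STAR on mm10 and HTSeq to count reads per gene. Of both tools the version, and of the counting the annotation and strand setting, were not found in the labels or the methods. The deposited table holds the authors' whole-number read counts, not normalized, in 54 columns of samples. Of these 42 were used, 1 has no name, and 11 of the KO strain, each equal to an MS column, were only compared. Columns with NACC in the name were read as the SNS strain. CPM is the count per 1000000 counts of the library. The names of 27 genes had been turned into dates (at most 0.212% of a library's counts).

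All genes that passed filterByExpr were tested with the quasi-likelihood F test of edgeR 4.0.16 after TMM scaling (limma 3.58.1, R 4.3.3), with Benjamini-Hochberg adjustment and a threshold of 0.05, after the test had been tried on simulated data. The SE is the log2 change over the square root of F, and 95% intervals are the change ± 1.96 SE. As alternatives, RLE factors, library totals, no filter, DESeq2 1.42.0 (independent filtering off), the replicate number as a block, all groups in one fit, batch, the other reading of the strain names, and leaving out libraries were tried. Without lens-rich libraries (MS-WT between tissues) and for non-overlap, alternatives were added after the data were seen. Folds against groups at 0 used a floor of 3 counts over the group and cover counting error only.

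Seed matches were searched in annotated 3′ UTRs of mm10. Genes named are the 10 highest members of each tissue, the 10 with the largest tissue change each way at 2 CPM or more, the 5 with the smallest p in each comparison of CKO and WT, the highest of each role, the 5 highest of the sorted cells, and Kcnj14 and Kcnq1ot1. Some members that this rule takes are not reported here. Others are named to describe a role or after their values were seen. The members, lists and tests were chosen with earlier results of these data known.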

Additional observations from a re-analysis of the deposited data

Results flagged for a closer look

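Among the named members 74 groups of 4 or 5 libraries were checked. In 4 of them 1 library stood apart from the others, where chance alone would give about 1 in 20. Other groups of the named members were not among the 74, so the list is not complete. Kcng3, a silent Kv subunit, had 8.22 CPM in cornea MS-WT library 5, against 1.91 to 3.53 CPM in the others. Kcnk1, a 2-pore channel, had 14.7 CPM in cornea SNS-WT library 1, against 8.45 to 9.45 CPM. Kcnk7, another 2-pore subunit, had 9.22 CPM in cornea SNS-WT library 2, against 3.88 to 4.65 CPM, and 2.81 CPM in cornea MS-CKO library 5, against 5.54 to 6.56 CPM.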

How the results depend on the processing

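The numbers of members past the threshold between TG and cornea ran over the alternatives from 60 to 71 in SNS-CKO, 57 to 74 in SNS-WT, 56 to 72 in MS-CKO and 58 to 75 in MS-WT mice. The number tested changed too. In MS-CKO mice 72 of 91 members passed with no filter on low counts, where 12563 of 23348 genes did. There 56 of 59 members passed with NACC columns read as MS, where 10002 of 12813 genes did. Between CKO and WT with no filter on low counts 1 member was past the threshold in the TG of SNS mice and 1 in the cornea of MS mice, Kcnq1ot1 both times. In that cornea comparison 84 members were tested, and 27 of 21433 genes passed. With 8mer matches alone 13 members had a seed match in place of 35 (13.8% of members, against 8.14% of all genes). The members lower in TG of MS-CKO mice were 3 in place of 5 with NACC columns read as MS. Those whose groups did not overlap in the TG of SNS mice were 13 to 18 in place of 11 with 1 library left out (11.3% to 16.0% of all genes). Leaving out a library can only keep or raise that number. The labels do not say whether libraries with the same replicate number come from the same mouse, and the main tests did not pair them. Correlations of same-numbered deviations ran from -0.084 to 0.180 between CKO and WT and from -0.0070 to 0.155 between tissues. Between tissues each number of the MS-WT mice, and 4 of 5 of the MS-CKO mice, correlated best with its own. In SNS mice only number 1 of SNS-WT and number 2 of SNS-CKO did. This is a hint from the data and not from the design. With the number as a block 64, 68, 67 and 68 members passed between TG and cornea in SNS-CKO, SNS-WT, MS-CKO and MS-WT mice and 0 in each comparison of CKO and WT. For MS-CKO mice this was 67 of 73 members tested, where 10612 of 14583 genes passed. With NACC columns read as MS, and the other earlier columns as SNS, the changes of CKO over WT turned for Kcna2 (0.11), Kcng2 (0.18) and Kcnh7 (0.20) in the TG of SNS, Kcnh7 (-0.18) in the TG of MS, and Kcng3 (0.54) and Kcnh1 (0.21) in the cornea of SNS mice. The interactions turned in the TG for Kcna2 (0.25), Kcng2 (0.93), Kcnh7 (0.39), Kcnk2 (0.39) and Kcnq3 (0.42), and in the cornea for Kcnd3 (-1.83), Kcnh1 (0.27), Kcnmb3 (-2.23) and Kcnq1ot1 (-0.18). Between TG and cornea Kcnv1 turned in SNS-CKO (-0.37) and MS-CKO mice (0.21) under that reading, and in MS-CKO mice also with RLE factors (0.030), DESeq2 (0.028) and library totals (0.16). Leaving out 1 library at a time gave -0.40 to 0.024 for Kcnh1 in the cornea of SNS mice, turned without SNS-WT 3, and between tissues -0.12 to 0.24 for Kcnv1 in SNS-CKO (turned without cornea 3), -0.30 to 0.10 for Kcnv1 in MS-CKO (turned without TG 1, TG 3 or cornea 4), -0.10 to 0.37 for Kcnc2 in SNS-CKO (turned without TG 1) and -0.042 to 0.22 for Kcnc2 in SNS-WT mice (turned without cornea 3). None of these turned values was past the threshold. Kcnc2 passed it in MS-CKO mice with library totals (0.76) and without cornea 4 (0.76). The cause of these changes was not tested.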
